A study of Rattus norvegicus with 9 samples.

Results

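The comparison described here set 3 kidneys treated with mesenchymal stem cells (MSC) against 3 model kidneys with chronic kidney disease (CKD), which are 6 of the 9 RNA sequencing libraries of the series. The libraries were taken by the group named in the sample titles, so no measured value assigned them, and all genes of the count table were compared. The comparison itself was chosen with earlier results of these data known. All kidneys came from SD (Sprague-Dawley) rats, an outbred laboratory stock, and 3 control kidneys gave the background level of each gene. By the series title, the cells were infused into the renal parenchyma under ultrasound guidance in a CKD rat model. The agent that caused the disease, the origin and dose of the cells, the time of sampling and the age and sex of the animals are not given in the sources used here. Whether each replicate is an animal of its own is not stated in the labels, so a kidney means a library throughout. The p-values therefore rest on the spread among these libraries only, and that spread may be technical. No group that received the infusion without cells is among the samples analysed here, so the injection and the cells cannot be told apart.

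Chronic kidney disease is a lasting loss of nephrons in which injured tubules, inflammatory cells and matrix-producing fibroblasts replace working tissue. Mesenchymal stem cells are stromal cells that are studied as a treatment mainly for the soluble factors and vesicles they release, which act on immune cells and on the injured epithelium. Tissue treated this way can hold RNA of the kidney, of incoming immune cells and of the injected cells together. In whole-kidney RNA, fewer cells of a type and less RNA per cell cannot be told apart.

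The deposited table gives each gene by its Ensembl rat identifier alone. Of its 22637 identifiers, 0 could be paired with a symbol through the gene table at hand, so functions, cell type markers and sequences are not given, and the labelled tissue and the origin of the RNA could not be checked against marker genes. Genes are therefore described by level, size and evenness of change, and 4 identifiers are printed.

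MSC libraries were the shallowest, with 47633344 to 48767298 counts against 56442995 to 58546847 in CKD libraries. They still held a count for more genes, 19461 to 19544 against 18754 to 19451. CKD replicate 2 was the CKD library nearest to the MSC libraries. On the first principal component of the 6 libraries, which held 62.6% of the variance of log2 CPM (counts after scaling all libraries to one total), CKD replicates 1, 2 and 3 scored -72.8, -24.5 and -104.9, and MSC replicates 88.9, 72.8 and 40.5. The closest pair across the groups was CKD replicate 2 with MSC replicate 3, whose Spearman coefficient across genes was 0.974. Within groups the lowest coefficients were 0.975 for MSC replicates 1 and 3 and 0.976 for CKD replicates 2 and 3. CKD replicates 1 and 2 reached 0.982. Such coefficients describe the libraries, as genes are no independent replicates.

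MSC kidneys differed from CKD kidneys in about equal numbers of genes in each direction, but by larger factors among the genes that were higher. Of 17584 genes tested, 2004 (11.4%) were called higher and 2006 (11.4%) lower in MSC kidneys, together 4010 (22.8%), (edgeR quasi-likelihood test, threshold of 0.05 on the adjusted p). The median called gene was 2.35-fold higher or 1.62-fold lower. A change under 2-fold was found in 38.6% of the higher genes and in 72.3% of the lower genes. Of the higher genes 741 lay between 2- and 4-fold, 253 between 4- and 8-fold and 237 at 8-fold or more. The numbers of lower genes in these ranges were 426, 91 and 39. These include genes under 1 CPM in controls. Those under 0.1 CPM entered the test through their level in MSC or CKD kidneys, and how many others did so was not counted. At 0.1 to 1 CPM, 327 higher and 46 lower genes reached 2-fold, and under 0.1 CPM 100 and 1. Median log2 folds of higher and lower genes lay closer at 1 to 10 CPM (1.39 and -1.24) and 10 to 100 CPM (0.75 and -0.61). They were 0.70 and -0.68 at 100 to 1000 CPM and 1.20 and -1.30 over 1000 CPM. Leaving out CKD replicate 1 gave 1776 calls in all, and leaving out CKD replicate 3 gave 1641. The fits lacking MSC replicate 1 or MSC replicate 2 gave 1961 and 1499. The number was 4652 if CKD replicate 2 was left out, and 4004 when every library was thinned at random to the smallest total.

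Over all tested genes the 3 MSC values lay above the 3 CKD values, with no overlap, in 3894 genes (22.1%), and below them in 3724 genes (21.2%). Among called genes, 99.1% of the higher and 99.1% of the lower genes had groups that did not overlap, and 37 called genes did overlap. A further 1908 genes were separated with higher and 1737 with lower MSC values without being called.

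The balance of directions differed with the level of a gene in the control kidneys, which took no part in the difference between MSC and CKD. With changes of any size counted, scarce transcripts were mostly called higher and abundant ones mostly lower. Among 4282 genes at 1 to 10 CPM in controls, 664 were called higher (15.5%) and 263 lower (6.14%). At 10 to 100 CPM the order was the reverse, with 796 of 7815 genes higher (10.2%) and 1252 lower (16%), but among changes of at least 2-fold it turned again, to 251 higher and 205 lower. At 100 to 1000 CPM, 112 of 1898 genes were higher (5.9%) and 426 lower (22.4%), and over 1000 CPM 4 of 86 were higher and 18 lower. At 2-fold or more these numbers were 27 and 104 at 100 to 1000 CPM, 2 and 11 over 1000 CPM, and 524 and 189 at 1 to 10 CPM.

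Folds of all tested genes, called or not, shifted in the same order, with a median log2 fold of 0.17 at 1 to 10 CPM, -0.07 at 10 to 100, -0.19 at 100 to 1000 and -0.43 over 1000 CPM, against 0.004 over all genes. In each of these 4 classes the more frequent direction of the calls was the one given here under 16 alternative settings, and the minimum of 2-fold turned it at 10 to 100 CPM. Below 1 CPM most calls were also higher, 328 against 46 at 0.1 to 1 CPM and 100 against 1 under 0.1 CPM. The counts under 0.1 CPM carry no weight as support, since such a gene entered the test through its level in MSC or CKD kidneys. At 0.1 to 1 CPM control counts alone could pass the filter for some genes. How many genes of that class entered otherwise was not counted, so its counts are not used as support either. CKD and MSC libraries also differed in depth and in the share of counts held by the 10 most abundant genes, which was 11.01% to 12.72% in CKD and 15.14% to 18.07% in MSC libraries. The part of that share in the shift was not tested.

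**Figure D1:**
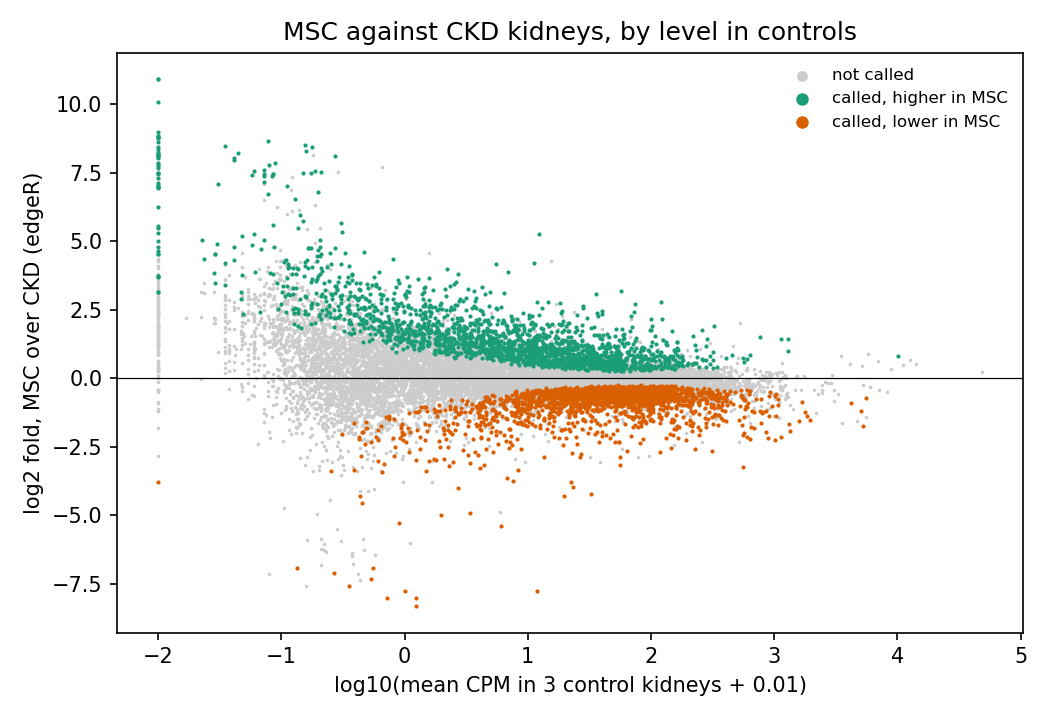
Log2 fold of MSC over CKD kidneys (vertical axis) against the mean level of each gene in the 3 control kidneys (horizontal axis, log10 of CPM + 0.01). Each point is 1 of 17584 tested genes, coloured where called by edgeR; the called genes fan out upwards at low level and lie mostly below 0 at high level.

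**Figure D2:**
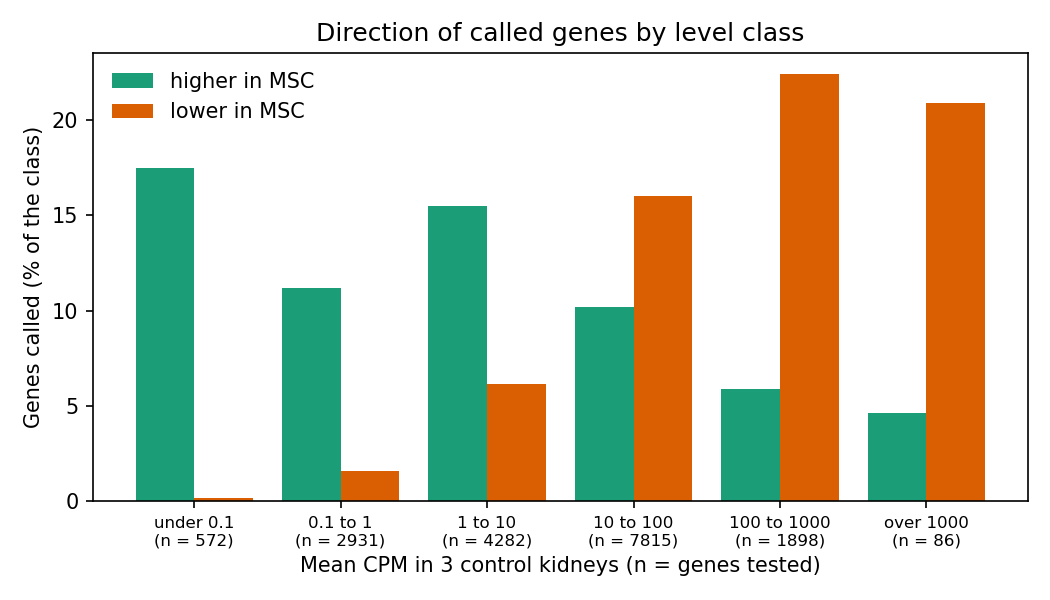
Percent of tested genes called higher or lower in MSC than in CKD kidneys, by class of mean CPM in the 3 control kidneys. The bars cross between 1 to 10 CPM, where 15.5% were higher and 6.14% lower, and 10 to 100 CPM, where 10.2% were higher and 16% lower, with changes of any size counted; at 2-fold or more the latter class held 251 higher and 205 lower genes.

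The 100 most abundant genes of control kidneys, all at 902 CPM or more, held 4 genes called higher and 21 called lower in MSC than in CKD kidneys, with a median log2 fold of -0.43. Their calls took in 25 of 100 genes, near the 22.8% of all genes.

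The genes printed by identifier had the largest changes, 2 in each direction, among genes that were called, did not overlap between groups and had an average log2 CPM of at least 3. This rule left 1162 higher and 1703 lower genes to choose from. The rule uses the contrast itself, so their folds describe the extremes and are no separate evidence.

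ENSRNOG00000048470 had 28.4, 29.3 and 30.7 CPM in the 3 MSC kidneys and 0.966, 0.717 and 0.63 CPM in the CKD kidneys. Both groups were tight and lay far apart. In controls it was uneven, at 0.847, 17.8 and 18.3 CPM, so 1 control lay at the CKD level and the other two lay between the groups. The log2 fold of MSC over CKD was 5.25 ± 0.93 (SE, n = 3 each, edgeR adjusted p = 0.00853). The SE comes from the fit over all 9 libraries, so the spread of the controls enters it. Leaving out single libraries kept the log2 fold between 5.13 and 5.44.

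ENSRNOG00000045772 was close to absent in controls, with 0.188, 0.111 and 0 CPM, where a count of 0 allows up to 0.0615 CPM. CKD kidneys had 0.298, 3.39 and 0.432 CPM, and MSC kidneys 45.1, 28.9 and 8.54 CPM. The groups did not overlap, although CKD replicate 2 was several times above the other CKD kidneys and MSC replicate 3 well below the other MSC kidneys. The log2 fold was 4.31 ± 1.02 (SE, n = 3 each, edgeR adjusted p = 0.0201). It rose to 6.22 if CKD replicate 2 was left out (edgeR adjusted p = 0.00523). The call was lost without CKD replicate 1 (edgeR adjusted p = 0.0569), CKD replicate 3 (0.0637), MSC replicate 1 (0.0603) or MSC replicate 2 (0.0556), within a range of 0.00369 to 0.0637 over its alternatives.

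ENSRNOG00000020685 fell to 1.44, 0.501 and 0 CPM in MSC kidneys from 11.3, 10.5 and 16.6 CPM in CKD kidneys. Controls lay highest and close together, at 20.7, 19 and 19.2 CPM. Every MSC kidney was below every CKD kidney, and every CKD kidney below every control. The log2 fold of MSC over CKD was -4.29 ± 0.83 (SE, n = 3 each, edgeR adjusted p = 0.0108). That size moved with single libraries and with the tool, to a log2 fold of -5.67 without MSC replicate 1, -3.71 without MSC replicate 3 and -5.96 with limma-voom.

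ENSRNOG00000057369 had 17.3, 5.93 and 40.6 CPM in CKD kidneys and 24.6, 17 and 56.3 CPM in controls. MSC kidneys had 0.292, 1.67 and 1.46 CPM, all below every other kidney. CKD values spread widely, with replicate 2 the lowest and nearest to MSC. The log2 fold was -4.22 ± 0.86 (SE, n = 3 each, edgeR adjusted p = 0.0127), and -3.35 without CKD replicate 3. With limma-voom it was -4.14 and no longer past the threshold (limma-voom adjusted p = 0.0788), the highest over its alternatives, which began at 4.24e-05 with DESeq2.

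**Figure D3:**
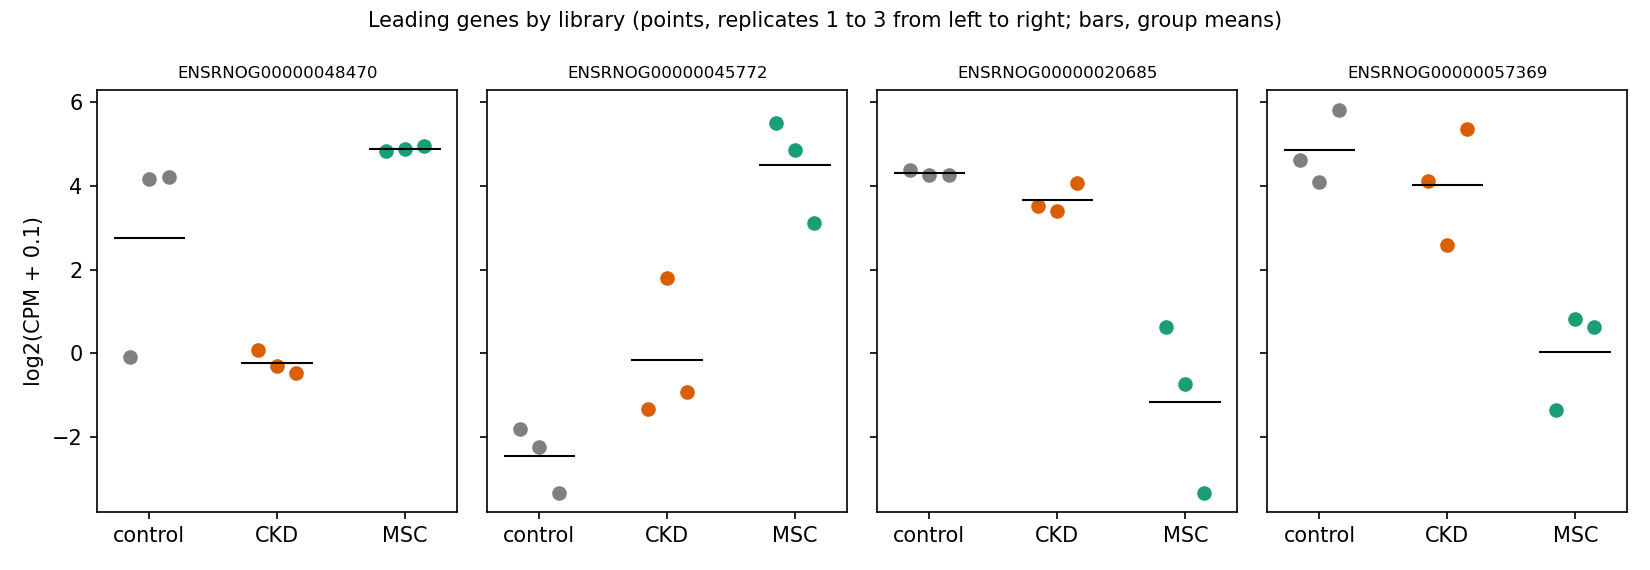
Level of the 4 genes in each of the 9 kidneys, as log2(CPM + 0.1); points are libraries in replicate order and bars are means of the plotted values. MSC and CKD points do not overlap in any of the 4 panels, and the control points of ENSRNOG00000048470 split into 1 low and a pair of high values.

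The 12 leading genes in each direction by the same rule, identifiers not printed beyond those 4, were described in the same way. The 12 higher genes had log2 folds of 3.18 to 5.25, with MSC means of 19.2 to 84.1 CPM and CKD means of 0.771 to 8.39 CPM. In 12 of 12 all controls lay below every MSC kidney. The share over all called genes was not counted. Over all genes called higher, the control medians were 0.01, 0 and -0.11 from the CKD mean on the log2 scale. The position of the controls is thus not read as particular to the 12. The lowest MSC value exceeded the highest CKD value by 2.13-fold to 29.4-fold. MSC replicate 3 was the lowest of its group in 10 of 12, MSC replicate 1 the highest in 6 of 12 and CKD replicate 2 the highest of its group in 8 of 12.

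The 12 lower genes had log2 folds between -4.29 and -2.65, with CKD means of 12.8 to 700 CPM and MSC means of 0.647 to 74.5 CPM. The most abundant of them had 899.9, 546.2 and 653.7 CPM in CKD kidneys, 754.8, 563.2 and 357.8 CPM in controls and 47.8, 49.2 and 126.4 CPM in MSC kidneys, with every MSC kidney far below all other kidneys. In all 12 genes the controls lay above every MSC kidney. Over all genes called lower, the control medians were -0.02, 0 and -0.02 from the CKD mean, so this too is not read as particular to the 12. The lowest CKD value exceeded the highest MSC value by 1.36-fold to 7.31-fold, a range with lower ends than among the 12 higher genes. Each end is a single gene, so the ranges do not give the typical gap. MSC replicate 1 was the lowest of its group in 11, MSC replicate 3 the highest in 7 and CKD replicate 2 the lowest of its group in 10. These genes were chosen on the same libraries, and the order of libraries within a group took no part in that choice.

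Abundant genes gave the following values. The 6 most abundant genes called higher, with separated groups, had log2 folds of 0.82 to 1.51 and MSC means of 1135 to 15720 CPM. The 6 most abundant called lower had log2 folds of -1.75 to -0.73, with CKD means of 1764 to 5875 CPM. Over all called genes the median log2 fold was 1.20 for the higher and -1.30 for the lower genes over 1000 CPM in controls, 0.70 and -0.68 at 100 to 1000 CPM and 0.75 and -0.61 at 10 to 100 CPM.

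Summed over genes, the 8843 with a higher mean in MSC kidneys gained 154700 CPM, and the 8741 with a lower mean lost 170400 CPM. Scaling factors ran from 0.95 to 1.112 in CKD and from 0.997 to 1.08 in MSC libraries. Scaled libraries therefore do not share a total, and the difference between the sums is not read as a net loss. By these means 59 genes made up 50% of the gain, against 223 genes for 50% of the loss. That contrast was not tested, and it includes genes not called. The genes ranked 1 and 2 by gain were not called (edgeR adjusted p = 0.162 and 0.501), and their groups overlapped. The gene ranked 2 by loss was not called either (edgeR adjusted p = 0.0506), whereas those ranked 1 and 3 were. Called genes carried 40.2% of the gain and 50% of the loss. Of the 59 genes 34 were called higher, and of the 223 genes 116 were called lower. Over all tested genes 11.4% were called in each direction. Both sets were chosen by the contrast itself, so these counts and shares of calls are no support.

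Some genes were at 0 counts in 1 group. In 58 genes no CKD library had a count and each MSC library had at least 10, with a median of 26.7 counts over the genes' MSC means and 225.3 in the highest. The choice used the contrast itself, so how many of them were called is not counted here. Controls, which the choice did not use, had no count for 32 of the 58, counts in every library for 3 and in some libraries for 23. At least 10 counts in a control were found for 18, so presence in MSC and absence in CKD kidneys did not always mean absence in controls. The opposite pattern held for 5 genes, of which 4 had counts in every control.

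Libraries of a group differed along the direction that separated the groups. Among the 2004 genes called higher, the median distance from the CKD mean was 1.41 in MSC replicate 1, 1.26 in replicate 2 and 1.03 in replicate 3 on the log2 scale. Among the 2006 called lower it was -0.75, -0.69 and -0.60. MSC replicate 1 was the highest of its group in 54.6% of the higher genes and the lowest in 50% of the lower ones. CKD replicate 2 was the CKD kidney nearest to MSC in 61.1% of the higher and 63.7% of the lower genes, and CKD replicate 3 in 13.8% and 11.6%. Medians in the control libraries were 0.01, 0 and -0.11 for the higher and -0.02, 0 and -0.02 for the lower genes.

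Each library was then placed with genes called without it, on a scale from 0 at the mean of the remaining CKD kidneys to 1 at the mean of the remaining MSC kidneys. CKD replicates 1, 2 and 3 lay at 0.109, 0.448 and -0.105, and MSC replicates at 1.03, 0.929 and 0.678. CKD replicate 2 thus lay nearly midway and MSC replicate 3 short of its group, and no library crossed to the other group. Of the genes called without it, CKD replicate 2 was nearer to the CKD mean in 61.6%, against 92.4% and 95.5% for CKD replicates 1 and 3. MSC replicate 3 was nearer to the MSC mean in 73.6%, against 90.2% and 95.9%. The 6 positions rest on different genes and fits, so they describe the libraries and were not tested.

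**Figure D4:**
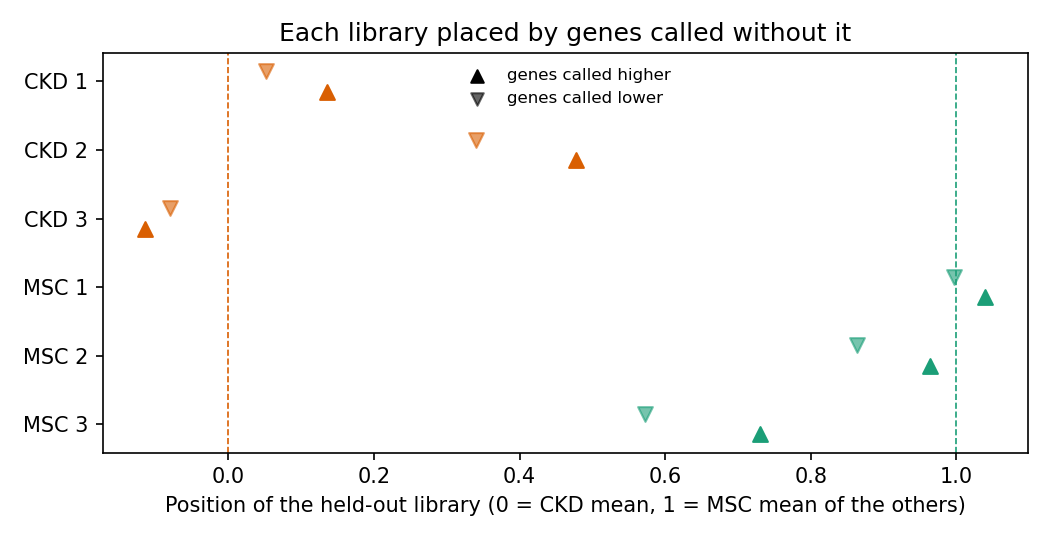
Position of each library between the CKD mean (0) and the MSC mean (1) of the remaining libraries, over genes called without that library; triangles pointing up are genes called higher in MSC and triangles pointing down genes called lower. CKD replicate 2 lies at 0.477 and 0.34 for the 2 gene sets, and MSC replicate 3 at 0.73 and 0.572.

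The same 2 libraries blurred the separation of single genes. Of the 9966 tested genes whose MSC and CKD values overlapped, 2804 (28.1%) were separated once CKD replicate 2 was left out and 2415 (24.2%) once MSC replicate 3 was left out. For CKD replicates 1 and 3 and MSC replicates 1 and 2 the numbers were 1128, 1021, 1410 and 879.

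A core of 1214 genes was called in the same direction in all 6 fits that left out 1 of the libraries, 584 higher and 630 lower, or 30.3% of the 4010. Their median absolute log2 fold was 1.08, against 0.81 for the remaining called genes, and the medians by direction were 1.47 and -0.88. The core was chosen by calls on the same libraries, so its larger folds and its split by level are no separate evidence. Of the printed genes 3 belonged to the core, all but ENSRNOG00000045772. By control level, the core held 266 higher and 416 lower genes at 10 to 100 CPM, 41 and 124 at 100 to 1000 CPM and 193 and 77 at 1 to 10 CPM. Of the 12 leading genes in each direction, 8 higher and 8 lower were in the core. Calls that failed in 3 or more of these fits numbered 2353.

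**Figure D5:**
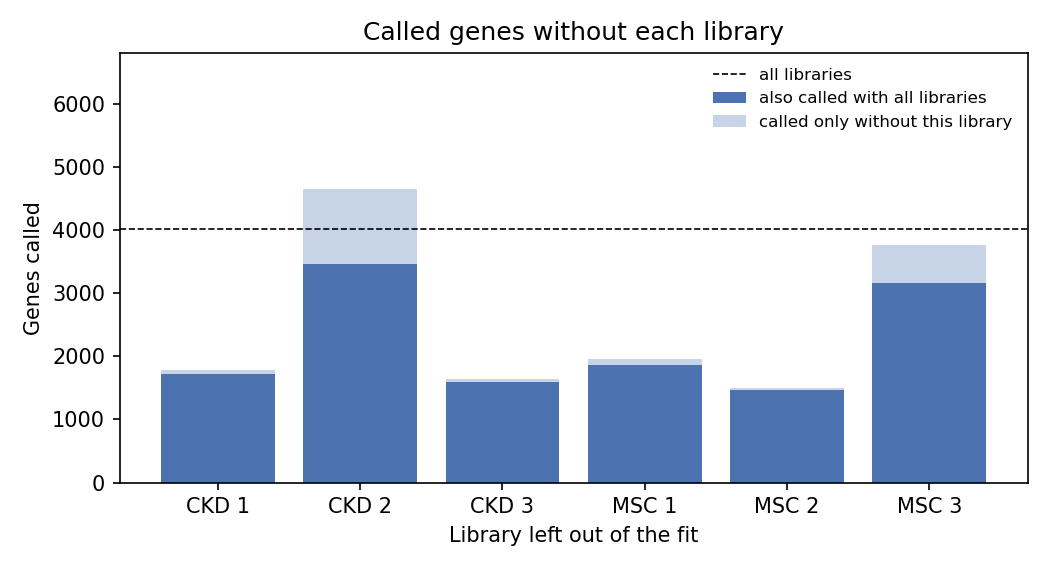
Number of genes called between MSC and CKD kidneys when each library was left out; the dark part of a bar is genes also called with all libraries, and the dashed line is 4010. Without CKD replicate 2, 3454 of these genes were called again and 1198 were added; without MSC replicate 2, 1472 were called again.

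For 13574 genes no difference was called. An interval of 95% for the fold lay within 2-fold in either direction for 7639 of the 13573 with a standard error (56.3%). Each interval is for its own gene, without adjustment for the number of genes. It rests on the spread among these libraries, which may be technical, so larger changes between animals are not excluded. Another 1998 uncalled genes had estimates of at least 2-fold, 1365 higher and 633 lower, and in 1100 of them the groups did not overlap.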

How the data were processed

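Polyadenylated RNA of rat kidney was captured on oligo(dT) beads and made into strand-specific libraries, 9 in all, per the labels' protocols. The authors deposited 1 table of raw counts per gene. The submitters' processing notes name cutadapt, HISAT2, StringTie and the build Rnor_6.0. Versions, annotation and strand setting are not given in the sources used here. If the counting ignored strand or split near-identical genes, single values could shift. Totals ran from 47633344 to 58546847 counts, and a count of 0 allows up to 3 counts (0.0478 to 0.0626 CPM, counting error only).

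Counts were tested with edgeR 4.0.16 in R 4.3.3: filterByExpr (17584 of 22637 genes), TMM scaling and a robust quasi-likelihood fit of group over all 9 libraries, without further terms, contrast MSC minus CKD, two-sided, Benjamini-Hochberg adjustment over all tested genes, threshold 0.05. Standard errors are the absolute log2 fold over the root of F. CPM is given after TMM scaling, and a prior count of 2 was added for log2 CPM. The fit was tested on simulated data. Alternatives were RLE, upper-quartile and library-size scaling, other filters, the 6 libraries alone, DESeq2 1.42.0, limma-voom (limma 3.58.1), a replicate block, a 2-fold minimum and each library left out. Thinning to the smallest total was chosen after seeing the data.

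Named were the 2 highest and the 2 lowest log2 folds among genes called, separated and with average log2 CPM of at least 3. The planned rule named more genes by symbol and 37 gene lists, which could not be run without symbols (0 of 47357 entries of the gene table carry an Ensembl identifier). The comparison, lists and rule were chosen with earlier results of these data known.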

Additional observations from a re-analysis of the deposited data

How the results depend on the processing

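All 4010 calls kept their sign in every alternative in which they were tested. The groups did not overlap in 99.1% of the higher and 99.1% of the lower calls. A change of sign on the same libraries was therefore hardly possible, and its absence is no support. Of the 4010, 1195 (574 higher, 621 lower) were called in all 16 alternatives besides the fold minimum. Scaling, filters, DESeq2 (5571 genes), limma-voom (4661), thinning (4004) and a fit of the 6 libraries alone (2858) left the number of calls within 1.5 times. Requiring a 2-fold change, which can only lower the number, left 1787 genes, 1231 higher and 556 lower. It also turned the balance at 10 to 100 CPM in controls, from 796 higher and 1252 lower to 251 and 205. Leaving out single libraries, which leaves fewer samples, gave 1499 to 4652 genes, 753 to 2469 higher and 746 to 2183 lower. The fit with the replicate block called 4493 genes, 2322 higher and 2171 lower, and ended no call of the 4 printed genes. The replicate numbers are not stated to pair the libraries, so the block was an alternative only. Deviations of same-numbered MSC and CKD libraries correlated across genes at -0.102, 0.024 and 0.265, which is given as a description. The share of calls in the higher direction ran from 47.7% to 54.2% over scalings, and the median log2 fold over all tested genes lay between 0.023 and 0.035 with the other scalings. Depth limits genes of few counts, and the 5053 untested genes held at most 0.028% of the counts of a library.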

Other observations

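The gene with the largest gain in mean CPM, singled out after its values were seen and not among the 4 printed identifiers, had 15630, 8963 and 6006 CPM in MSC kidneys. CKD replicates 1 and 3 had 460.4 and 412.8 CPM and the controls 401.2, 705.5 and 465 CPM, whereas CKD replicate 2 had 6652 CPM and so lay above MSC replicate 3. Its log2 fold was 2.02 ± 0.98 (SE, n = 3 each) and did not pass the threshold (edgeR adjusted p = 0.162). The gene with the largest loss had 6572, 3351 and 6550 CPM in CKD kidneys and 1002, 1999 and 1900 CPM in MSC kidneys, with no overlap and CKD replicate 2 again the nearest to MSC. Its log2 fold was -1.75 ± 0.34 (SE, n = 3 each, edgeR adjusted p = 0.0107).

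Deviations of single libraries from their own group's mean were set side by side across genes, after the data were seen. Those of CKD replicate 2 correlated at 0.298 with those of MSC replicate 1 and at -0.302 with those of MSC replicate 3, while CKD replicate 3 correlated at 0.265 with MSC replicate 3 and at -0.221 with MSC replicate 1. Deviations within a group of 3 sum to 0, so these values are not independent of each other, and they are given as a description.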
